A study of Mus musculus with 5 samples.

Results

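This account covers 32 genes of blood and lymphatic endothelium in the mouse thyroid, chosen by symbol from a fixed list and all found among the 16413 genes of the deposited count table. Thyroid RNA came from mice with the LSL-BrafV600E allele, an oncogenic Braf allele behind a removable stop, and the TgCreERT2 transgene, a tamoxifen-activated Cre named for the thyroglobulin gene of follicular cells. Tamoxifen was given for 1 week at 8 weeks of age, and the animals then ate chow (2 libraries, replicates 2 and 8) or a high fat diet (3 libraries, replicates 2, 9 and 10) for 12 weeks, from 10 to 22 weeks of age. Every animal carried the mutation and received tamoxifen, so diet is the difference the labels give and the vessels described are those of mutant glands. Total counts were 43494747 to 52663677 per library, and thyroglobulin (Tg) alone took 10.9% to 22.1% of them, which marks the tissue as thyroid. Whether each numbered library is its own animal is not stated, so p-values reflect the spread between these libraries, which may be technical.

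Endothelial cells line all vessels. Their growth and survival depend on VEGF signals read by the receptors Kdr, Flt1 and Flt4 and on angiopoietin signals read by Tek with its partner Tie1, while the cadherin Cdh5, the claudin Cldn5 and Pecam1 hold neighbouring cells together. Thyroid follicles are wrapped in dense fenestrated capillaries, whose openings are spanned by diaphragms built from Plvap, and hormone reaches the blood through them. Lymphatic endothelium is marked by the transcription factor Prox1, the hyaluronan receptor Lyve1 and Flt4.

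All 32 genes were measured well above the low-count filter in every library, with 122 to 14084 counts per gene and library. Together they held 67797 and 54699 counts under chow, against 82922, 93044 and 79364 under fat feeding, at most 0.189% of a library. Levels between genes were compared as the authors' deposited FPKM, which divide by transcript length. Ly6c1, a surface protein of many capillary endothelial cells and of some leukocytes, was highest with FPKM of 53.3 and 48.7 under chow against 49.4, 64.6 and 89.9 under fat feeding. The sialomucin Cd34 followed with FPKM of 52.7 and 33.5 under chow against 45.7, 56.5 and 59.0 under fat feeding. The sialomucin Emcn averaged an FPKM of 41.4 ± 7.58 (SD, n = 5 libraries), and Pecam1 36.7 ± 7.47. Ly6c1 is uncertain because Ly6c2, also in the table, is nearly identical in sequence and counting can split their reads.

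At the low end stood the regulators. The SOX transcription factors Sox7 and Sox17 averaged FPKM of 1.54 ± 0.480 and 1.46 ± 0.469 (SD, n = 5), the nitric oxide synthase Nos3 1.70 ± 0.245, and Prox1 was the lowest of the 32 at 0.824 ± 0.102. Claudin Cldn5 lay at an FPKM of 2.87 ± 0.465, well under its junctional partners Cdh5 at 17.1 ± 2.63 and Esam at 11.8 ± 1.26. The order of levels was gradual. Of the 31 neighbouring steps in this order, 2 separated genes whose library ranges did not overlap, Robo4 above Icam2 and Cldn5 above Nos3.

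**Figure D1:**
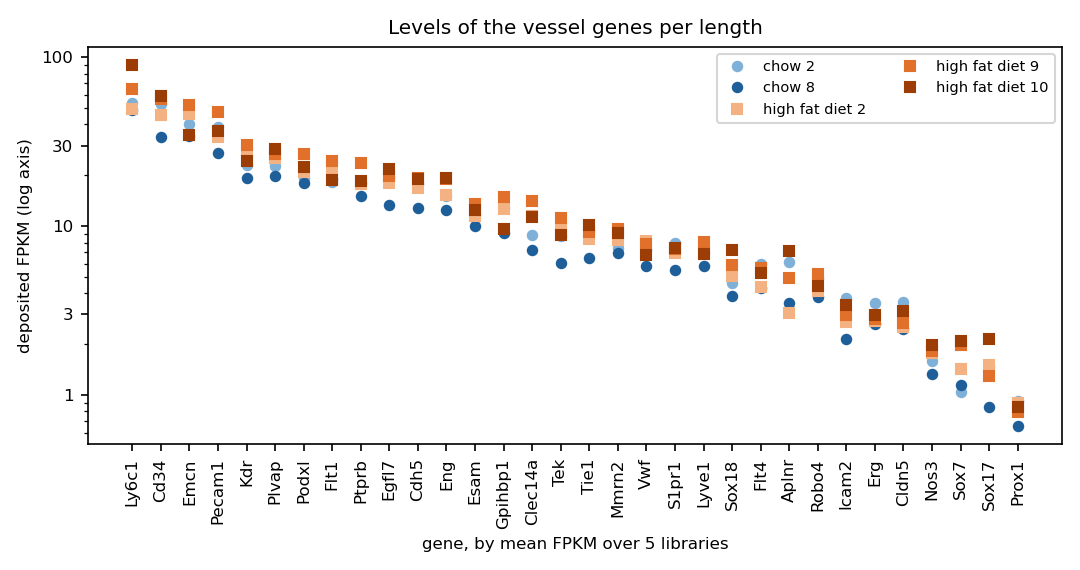
Deposited FPKM (log axis) of the 32 vessel genes in each library, with genes ordered by their mean over 5 libraries; circles are chow and squares high fat diet. Means run from 61.2 for Ly6c1 down to 0.824 for Prox1, and the libraries of neighbouring genes overlap at nearly every step.

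Among the VEGF receptors, Kdr, the main signalling receptor of blood endothelium, held 45.4% to 51.3% of the summed FPKM of the 3 genes. Flt1, which binds VEGF tightly and limits its supply to Kdr, held 38.7% to 44.5%. Flt4, the VEGF-C receptor of lymphatic vessels and fenestrated capillaries, held 8.13% to 12.7%. In chow replicate 8 Kdr and Flt1 were nearly equal, at 45.4% and 44.5%, and in the other 4 libraries Kdr led. Tek and Tie1 were at like levels per length, with a Tek to Tie1 ratio of 0.880 to 1.21.

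No vessel gene passed the test for diet. With edgeR's quasi-likelihood model, Benjamini-Hochberg adjustment over the 15765 genes tested and a threshold of 0.05, the test called 0% of all genes higher and 0% lower. DESeq2 called 0.597% of all genes and 0 of the 32, where the lowest adjusted p was 0.129, and limma-voom called 0 of all genes. The fold changes nonetheless leaned one way. Of the 32 genes 26 had a log2 fold change above 0, against 52.7% of all genes tested, and the median was 0.18, a ratio of 1.14, against 0.01 over all genes. The range ran from -0.20 for Cldn5 to 0.65 for Sox7. The 95% intervals contained 0 for 27 of the 32 genes, and for 31 of them the upper bound lay under a log2 fold change of 1, the exception being Sox7 at 1.16. In bulk RNA a change in the number of endothelial cells and a change in RNA per cell cannot be told apart.

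**Figure D2:**
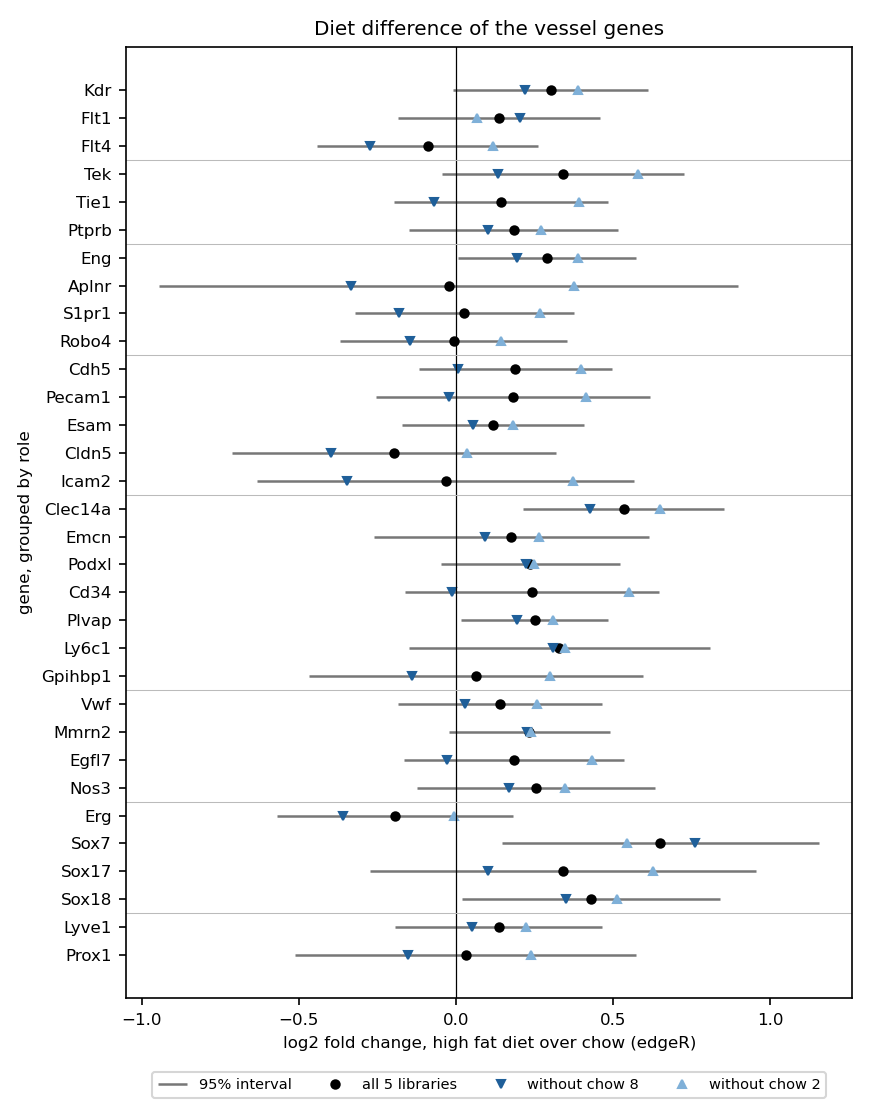
Log2 fold change of each vessel gene, high fat diet over chow, from edgeR; black points use all 5 libraries, bars are 95% intervals, and triangles are fits without chow replicate 8 (dark, pointing down) or without chow replicate 2 (light, pointing up). The intervals contain 0 for 27 of the 32 genes, and the fits without chow replicate 8 lie to the left of those without chow replicate 2 for all but Flt1 and Sox7.

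The lean rested largely on chow replicate 8. For 23 of the 32 genes this library had the lowest CPM (counts over the TMM-adjusted library size, on the usual scale) of the 5 libraries, while it was the lowest for 20.2% of all genes tested. Averaged over the 32 genes, log2 CPM stood 0.25 below the gene means in chow replicate 8, and 0.04 above them in chow replicate 2. The high fat diet libraries stood at 0.00 (replicate 2), 0.16 (replicate 9) and 0.05 (replicate 10). Chow replicate 2 thus sat within the range of the high fat diet libraries, and chow replicate 8 alone below it. Chow replicate 2 exceeded chow replicate 8 for 30 of the 32 genes, against 50.2% of all genes, with a median log2 difference of 0.27 between these replicates of 1 diet, larger than the median diet difference of 0.18.

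Without chow replicate 8 the median log2 fold change of the vessel genes was 0.05 with 19 of 32 above 0, and without chow replicate 2 it was 0.33 with 31 of 32 above 0. All 7 skeletal muscle genes were also at their lowest in chow replicate 8, with a summed level of 224 CPM against 464 to 851 CPM elsewhere. Of the 6 C cell genes 2 were lowest there, and their summed level of 398 CPM lay inside the 310 to 655 CPM of the other libraries. Calca alone held 286 CPM of that sum. Averaged over the C cell genes, log2 CPM minus the gene means was lowest in chow replicate 8, at -0.91. It was 0.13 in chow replicate 2 and 0.25, 0.63 and -0.11 in high fat diet replicates 2, 9 and 10. The Tg share of counts was highest in chow replicate 8, at 22.1%, followed by 18.7% in chow replicate 2, and lower in each fat-fed library, at 17.1%, 14.9% and 10.9%. Averaged over their genes, the lists for fibroblasts (-0.22), mural cells (-0.12) and vessel growth factor ligands (-0.26) were also lowest in chow replicate 8. So were those for erythroid cells (-1.30) and platelets (-0.53), and the parathyroid gene Casr (-0.97). The erythroid genes summed to 31.7 CPM in chow replicate 8 against 62.3 to 103 CPM in the other libraries. The mean over all genes tested was lowest there too, at -0.05. Leukocyte, thyroid follicular and white adipocyte genes, among others, had their lowest mean in another library. The part of tissue makeup in the vessel values was not tested.

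**Figure D3:**
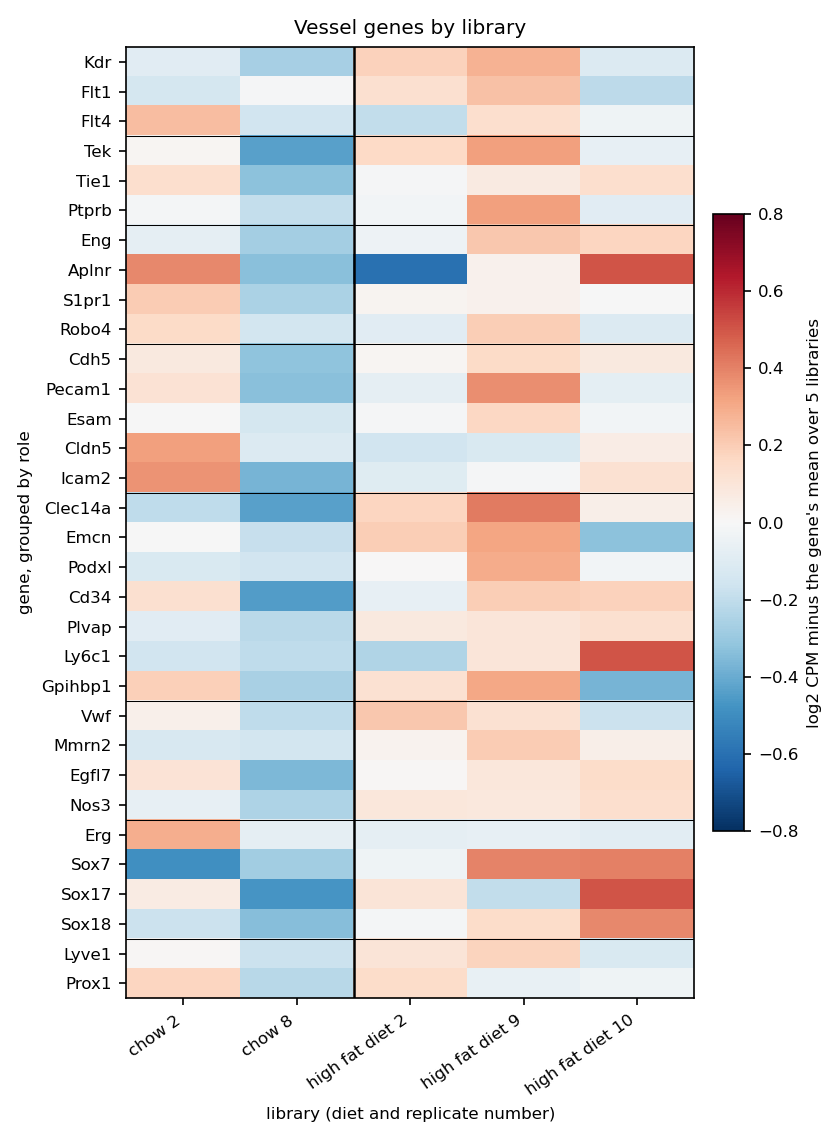
Log2 CPM of each vessel gene minus its mean over the 5 libraries, by library, with genes grouped by role; the vertical line separates chow from high fat diet. The column of chow replicate 8 is mostly blue, being the lowest library for 23 of the 32 genes, whereas chow replicate 2 resembles the high fat diet columns.

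The receptors were taken in turn. Kdr was at 129 and 114 CPM under chow against 156, 166 and 127 CPM under fat feeding. Replicate 10 on the high fat diet fell between the chow libraries, so the groups overlapped, and the log2 fold change was 0.30 (standard error 0.14, edgeR adjusted p = 0.91). Flt1 was at 118 and 129 CPM under chow against 142, 153 and 113 CPM under fat feeding, where the last was the lowest of all 5. Its log2 fold change was 0.14, and that of Flt4 was -0.09. Among the fat-fed libraries Kdr and Flt1 were highest in replicate 9 and lowest in replicate 10, as were Tek, Ptprb, Emcn, Gpihbp1 and Clec14a among others.

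Tek, the angiopoietin receptor, was at 42.4 and 30.9 CPM under chow against 46.8, 52.5 and 40.0 CPM under fat feeding. Its log2 fold change of 0.34 (standard error 0.17, edgeR adjusted p = 0.931) became 0.14 without chow replicate 8 and 0.58 without chow replicate 2. Tie1 was at 37.5 and 27.1 CPM under chow against 33.9, 35.9 and 37.5 CPM under fat feeding, with its highest and lowest values both in chow libraries. Ptprb, which removes phosphate from Tek, had a log2 fold change of 0.18, and without chow replicate 8 of 0.10.

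Of the other receptors, endoglin (Eng), a co-receptor for BMP ligands, was at 53.5 and 46.5 CPM under chow against 54.7, 65.2 and 63.4 CPM under fat feeding. The groups did not overlap, though by a small margin, and the log2 fold change was 0.29 (standard error 0.12, edgeR adjusted p = 0.904). Exons of Eng overlap Fpgs on the opposite strand in the annotation, and the sources used here do not state whether counting used strand. The apelin receptor gene Aplnr varied most among the fat-fed libraries, at 22.5 and 13.7 CPM under chow against 11.4, 17.6 and 24.4 CPM under fat feeding. Its log2 fold change of -0.02 had a 95% interval from -0.94 to 0.90. The sphingosine phosphate receptor gene S1pr1 and the guidance receptor gene Robo4 had 0.03 and -0.01. With total counts as library size Aplnr and Robo4 lay at 0.067 and 0.074 instead.

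Of the 5 junction and adhesion genes 3 had a log2 fold change above 0, and 2 of 5 without chow replicate 8. Cdh5 was at 72.8 and 55.2 CPM under chow against 69.7, 76.7 and 72.8 CPM under fat feeding, with chow replicate 2 inside the fat-fed range and chow replicate 8 below it. Its log2 fold change of 0.19 became 0.01 without chow replicate 8. Pecam1 was at 131 and 96.1 CPM under chow against 115, 157 and 115 CPM under fat feeding, with a log2 fold change of 0.18 that turned to -0.02 without chow replicate 8. Esam, an adhesion molecule of tight junctions, had 0.12. Cldn5 and the leukocyte ligand Icam2 had -0.20 and -0.03, and both were at their highest in chow replicate 2. Icam2 was at 0.047 with total counts as library size.

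The surface glycoproteins and capillary wall genes were all above 0, 7 of 7, with a median log2 fold change of 0.24, and 5 of 7 without chow replicate 8. Clec14a, a lectin-like surface protein of endothelium that binds Mmrn2, had the smallest p of the 32 genes. It was at 41.6 and 35.4 CPM under chow against 53.9, 63.9 and 49.5 CPM under fat feeding. The fat-fed libraries all exceeded the chow ones, and the means were 38.5 ± 4.35 CPM (SD, n = 2) and 55.8 ± 7.37 CPM (SD, n = 3). The log2 fold change was 0.53 (standard error 0.14, 95% interval 0.21 to 0.86), and the adjusted p was 0.596 in edgeR and 0.129 in DESeq2. Leaving out 1 library, it ran from 0.43 to 0.65. Clec14a spans chromosome 12 from 58264720 to 58269290 on the minus strand of mm10 and overlaps no exon of another gene in GENCODE vM21. In the same annotation Sox7 spans chromosome 14 from 63943673 to 63950732 (plus strand), Plvap chromosome 8 from 71497765 to 71511752 (minus strand) and Sox18 chromosome 2 from 181669836 to 181671640 (minus strand).

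Plvap was at 47.3 and 43.4 CPM under chow against 53.1, 53.9 and 54.9 CPM under fat feeding, a difference of log2 0.25 (standard error 0.10, edgeR adjusted p = 0.884). Its high fat diet libraries were close together, with an SD of 0.928 CPM. Podxl, a sialomucin of the luminal surface, was at 107 and 104 CPM under chow against 116, 143 and 114 CPM under fat feeding, again without overlap. Cd34 and Emcn overlapped between diets, with log2 fold changes of 0.24 and 0.18. That of Cd34, whose exons overlap Gm16897 on the opposite strand, became -0.01 without chow replicate 8. Ly6c1 had 0.33, reaching 72.9 CPM in high fat diet replicate 10 against 43.4 to 54.8 CPM in the other 4 libraries. Gpihbp1, which carries lipoprotein lipase to the capillary lumen, was at 10.3 and 7.57 CPM under chow against 9.85, 11.2 and 7.004 CPM under fat feeding, a log2 fold change of 0.06.

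The secreted proteins were also above 0, though none passed. Mmrn2, the matrix partner of Clec14a, was at 30.2 and 29.7 CPM under chow against 33.7, 38.0 and 34.1 CPM under fat feeding. Its chow libraries were nearly equal and the groups did not overlap, with a log2 fold change of 0.23 that stayed between 0.18 and 0.26 when 1 library was left out (edgeR adjusted p = 0.927). Nos3 was at 6.81 and 5.99 CPM under chow against 7.57, 7.55 and 7.81 CPM under fat feeding, a log2 fold change of 0.26. Nos3 shares exon sequence with Atg9b on the opposite strand. Von Willebrand factor (Vwf), the clotting protein stored in endothelium, had 0.14, and Egfl7 had 0.19, which became -0.03 without chow replicate 8. Exons of Egfl7 overlap Agpat2 and Mir126b on the opposite strand, and Gm20532 and Mir126a on the same strand.

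Of the 4 transcription factors, the 3 SOX genes, relatives that act in vessel and lymphatic development, had log2 fold changes above 0. Erg, the ETS factor that maintains endothelial identity, had -0.19, which became -0.0048 without chow replicate 2. Sox7 was at 3.52 and 4.07 CPM under chow against 4.83, 6.51 and 6.53 CPM under fat feeding. The groups did not overlap, and its log2 fold change of 0.65 carried an error of 0.22 (edgeR adjusted p = 0.801). It was 1 of 2 genes, with Flt1, whose level was higher in chow replicate 8 than in chow replicate 2. Sox18 was at 7.69 and 6.84 CPM under chow against 8.54, 9.56 and 11.3 CPM under fat feeding, a log2 fold change of 0.43 (standard error 0.18, edgeR adjusted p = 0.889). Sox17 was at 5.14 and 3.55 CPM under chow against 5.27, 4.30 and 6.96 CPM under fat feeding, with overlap between diets. Its exons overlap Gm37587 on the opposite strand. All 3 SOX genes were highest in high fat diet replicate 10, as were Ly6c1, Plvap, Egfl7, Nos3 and Aplnr. That made 8 of the 32 genes (25%), against 29.7% of all genes tested. Erg was at 11.7 and 9.08 CPM under chow against 9.10, 9.12 and 9.02 CPM under fat feeding, where chow replicate 2 stood apart from 4 nearly equal libraries.

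Of the lymphatic markers, Lyve1 was at 18.7 and 16.5 CPM under chow against 19.98, 21.0 and 17.1 CPM under fat feeding, and Prox1 at 3.91 and 2.97 CPM under chow against 3.84, 3.33 and 3.38 CPM under fat feeding. Both overlapped between diets, with log2 fold changes of 0.14 and 0.03. Lyve1 is also made by some tissue macrophages, and the macrophage receptor gene Mrc1 was at 181 to 244 CPM. Prox1 shares exon sequence with the antisense gene Prox1os.

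In all, the fat-fed libraries each exceeded both chow libraries for 8 of the 32 genes (25%), namely Clec14a, Sox7, Plvap, Sox18, Eng, Mmrn2, Podxl and Nos3, against 10.6% of all genes tested. The reverse held for 0 of the 32, against 10.3% of all genes. Without chow replicate 8 the count was again 8 of 32, but the share of all genes was then 23.8%, so the vessel genes stood near the background. Without chow replicate 2 it was 24 of 32 against 25.7%, and without high fat diet replicate 10 it was 14 of 32 against 17.7%. At an unadjusted p under 0.05 edgeR gave 5 higher vessel genes, Clec14a, Sox7, Plvap, Sox18 and Eng, or 15.6% against 2.95% of all genes, and 0 lower against 2.47%. These 5 became 2 (Clec14a and Sox7, against 2.09% of all genes) without chow replicate 8, 1 (Clec14a, against 3.03%) without high fat diet replicate 9 and 8 (against 2.97%) without high fat diet replicate 10. With total counts as library size they became 9, against 4.89% of all genes, and with total counts without Tg they became 2, against 2.48%.

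**Figure D4:**
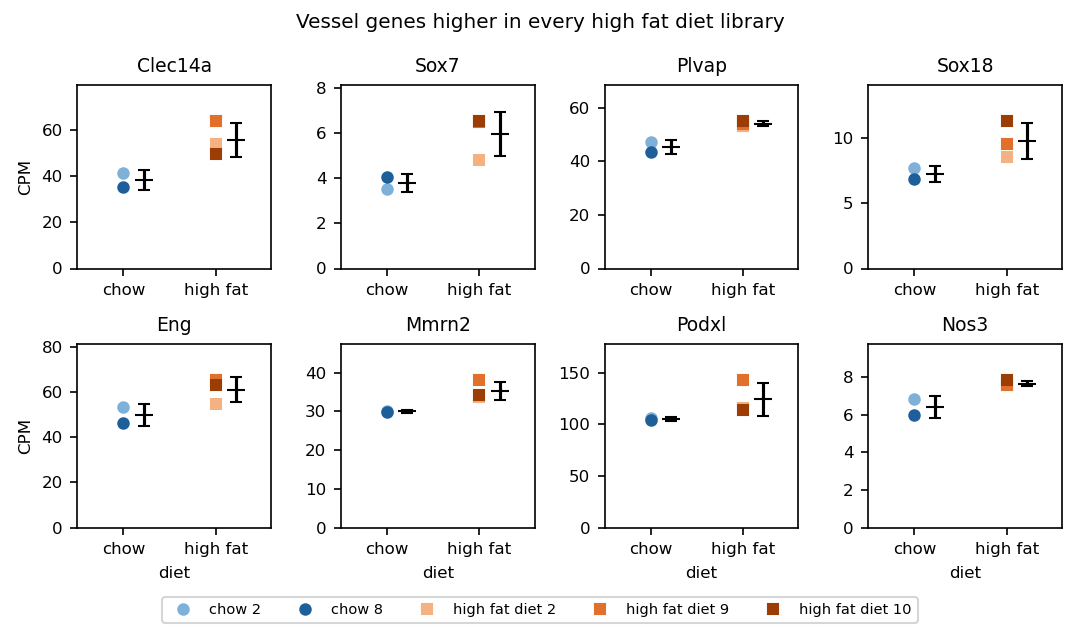
CPM in each library for the 8 vessel genes whose high fat diet libraries all lie above both chow libraries; black bars give the mean ± SD of 2 chow and 3 high fat diet libraries, and each axis starts at 0. Clec14a runs from 35.4 and 41.6 CPM on chow to 49.5, 53.9 and 63.9 CPM on the high fat diet, while for Nos3 and Plvap the step is small and the high fat diet libraries lie close together.

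To ask how each gene stood per amount of endothelial RNA, library size was also set to the summed counts of 18 other endothelial genes, a choice made after the data were seen. The sum is weighted to abundant genes such as Adgrf5, Adgrl4 and Calcrl, with means of 222, 95.3 and 89.0 CPM. Each of these was lowest in high fat diet replicate 10. The summed level was also lowest there, at 558 CPM against 574 CPM in chow replicate 8, although the mean over the genes was lowest in chow replicate 8. The median log2 fold change of the 32 genes was then 0.08, with 23 above 0. Clec14a at 0.44 was their single gene with an unadjusted p under 0.05 in either direction, against 3.61% of all genes. Over all genes edgeR then called 0.0636% at an adjusted p under 0.05, and 0 of the 32, whose lowest adjusted p was 1.00.

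The stretches before the start sites of the vessel genes of smallest p are printed for those with a RefSeq promoter entry, which 15 of the 32 genes had. They show what precedes Clec14a, Eng, Kdr and Tek, each read 5′ to 3′ on the strand of the gene from GRCm38.p6 (mm10) and ending at the annotated start. Capitals mark any match, on either strand, to 1 of 6 motifs. ETS factors such as Erg are represented by CGGAAG and by the letters AGGAAG, while SOX factors are represented by ACAAAG. The GATA factor motif searched was AGATAA, the GC box was GGGCGG and the TATA box was TATAAA.
Clec14a, chr12:58269291-58269508, minus strand: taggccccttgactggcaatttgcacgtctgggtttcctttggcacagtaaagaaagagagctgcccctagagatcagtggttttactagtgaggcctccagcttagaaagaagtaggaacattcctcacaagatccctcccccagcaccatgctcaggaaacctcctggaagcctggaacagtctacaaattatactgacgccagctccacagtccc
Eng, chr2:32646345-32646594, plus strand: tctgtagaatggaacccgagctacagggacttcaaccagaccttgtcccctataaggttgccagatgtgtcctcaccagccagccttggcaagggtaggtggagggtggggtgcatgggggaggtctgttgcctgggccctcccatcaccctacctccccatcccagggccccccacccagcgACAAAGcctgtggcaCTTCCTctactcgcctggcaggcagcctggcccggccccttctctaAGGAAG
Kdr, chr5:75978459-75978705, minus strand: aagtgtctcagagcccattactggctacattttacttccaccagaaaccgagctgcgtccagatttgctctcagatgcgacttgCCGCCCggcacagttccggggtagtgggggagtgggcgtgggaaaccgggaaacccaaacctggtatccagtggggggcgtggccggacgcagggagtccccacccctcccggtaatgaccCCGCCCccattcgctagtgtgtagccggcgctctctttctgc
Tek, chr4:94739039-94739288, plus strand: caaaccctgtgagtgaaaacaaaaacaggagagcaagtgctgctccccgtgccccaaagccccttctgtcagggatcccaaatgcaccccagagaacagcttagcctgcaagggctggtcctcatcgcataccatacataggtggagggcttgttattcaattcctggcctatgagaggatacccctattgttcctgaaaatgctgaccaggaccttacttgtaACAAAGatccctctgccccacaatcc

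The stretch of Clec14a, the gene of smallest p, held none of the 6 motifs. That of Eng held AGGAAG on both strands and ACAAAG, that of Kdr held the GC box 2 times on the opposite strand, and that of Tek held ACAAAG close to the start. Over the 250 bases before each of the 21 start sites of the 15 genes, AGGAAG was found at 10 sites (47.6%), against 29.5% of all 32851 promoters, and CGGAAG at 1 (4.76%) against 13.6%. ACAAAG was found at 23.8% against 16.5%, AGATAA at 4.76% against 9.99%, GGGCGG at 38.1% against 32.7%, and TATAAA at 19.0% against 12.4%. Several start sites belong to 1 gene, motif matches overlapped by 2 bases in a window of Ly6c1 and in 1 of Egfl7, and a match is a string of letters, not a bound site.

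Of 10 measured vessel growth factor ligands 8 were above 0 (median log2 fold change 0.19), and 0 passed in edgeR. Vegfa, the ligand of Kdr and Flt1, was abundant at 183 and 221 CPM under chow against 224, 220 and 229 CPM under fat feeding, a log2 fold change of 0.15. Angpt2, the context-dependent ligand of Tek, was at 8.22 and 7.52 CPM under chow against 11.1, 11.1 and 11.6 CPM under fat feeding, without overlap. Its log2 fold change was 0.52 (standard error 0.15, edgeR adjusted p = 0.661), and it ran from 0.46 to 0.58 with 1 library left out. Pgf, a ligand of Flt1, had 0.36, and Fgf2 had 0.50. In high fat diet replicate 10 the Tek ligand Angpt1 reached 34.3 CPM against 8.62 to 10.6 CPM in the other libraries, a value named after it was seen. The ligand genes Angpt4, Apela, Gdf2 and Bmp10 were not analysed here.

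Among 16 arterial and Notch genes, 11 were above 0, and their median of 0.13 on the log2 scale became 0.03 without chow replicate 8 and 0.04 without high fat diet replicate 10. The Notch target Hey1 was at 8.75 and 8.11 CPM under chow against 12.9, 11.8 and 12.0 CPM under fat feeding, a log2 fold change of 0.53 (standard error 0.15, edgeR adjusted p = 0.626). Sema3g had 0.54 and the Notch ligand Jag1 0.29, whereas the receptor Notch1 had -0.28, with each high fat diet library below both chow libraries. Follicular and other cells also make Notch1 and Jag1. Of 9 genes of venous and activated endothelium 7 were above 0 (median 0.10), which became 4 of 9 without chow replicate 8 (median -0.00021) and 4 of 9 without high fat diet replicate 10 (median -0.03). Icam1 had 0.32 and Sele 0.44, Ephb4 had 0.21, and the venular chemokine receptor Ackr1 had -0.65, at 3.43 and 3.07 CPM under chow against 1.70, 2.29 and 2.20 CPM under fat feeding. None of these passed in edgeR.

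Of 10 capillary genes 7 were above 0, with a median of 0.19. The fatty acid carrier Fabp5 was at 33.6 and 57.5 CPM under chow against 74.6, 85.0 and 119 CPM under fat feeding, a log2 fold change of 1.03 (adjusted p = 0.801 in edgeR and 0.0350 in DESeq2). It is also made by macrophages and epithelia. The water channel Aqp1 had 0.26. Fabp4 had -0.34 and Lpl -0.32. Adipocytes also express Fabp4 and Lpl, and 6 of 8 white adipocyte markers were below 0 here, with summed levels of 91.0 and 111 CPM under chow against 62.4, 67.2 and 46.1 CPM under fat feeding. The part of adipocytes in these values was not tested.

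The further endothelial genes resembled the 32 in their mean level by library, lowest in chow replicate 8 at -0.25. Their summed CPM differed, being lowest in high fat diet replicate 10, at 558 CPM against 574 CPM in chow replicate 8. Chow replicate 2 exceeded chow replicate 8 for 13 of these 18 genes, against 30 of the 32. Of 18 measured, 15 were above 0 (median log2 fold change 0.15), which became 0.05 without chow replicate 8, and 11 of 18 were lowest in that library. She had 0.33, Arhgef15 0.29, Cyyr1 0.22 and Myct1 0.25, and 0 passed in edgeR. Calcrl, the adrenomedullin receptor of endothelium, had 0.02 and its partner Ramp2 0.14. In the mural cell list, which covers pericytes and vascular smooth muscle, 9 of 14 were above 0 (median log2 fold change 0.08, or 0.02 without chow replicate 8 and also 0.02 without high fat diet replicate 9). The contractile genes Acta2 and Tagln had 0.55 and 0.44 and the pericyte channel Kcnj8 0.47, while Mcam had -0.21. Further lymphatic genes were split, 5 above 0 and 5 below, with Mmrn1 at -0.30, Reln at -0.23 and Itga9 at 0.30. Angpt2, counted here as well as among the ligands, had 0.52 and the smallest p of this list. The chemokine Ccl21a was at 0.486 and 30.4 CPM under chow against 0.522, 0.398 and 33.5 CPM under fat feeding. Chow replicate 8 and high fat diet replicate 10 were high and the other 3 libraries low, whatever the diet. Ccl21a has near-identical copies among which counting can split reads, and it was named after its values were seen.

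**Figure D5:**
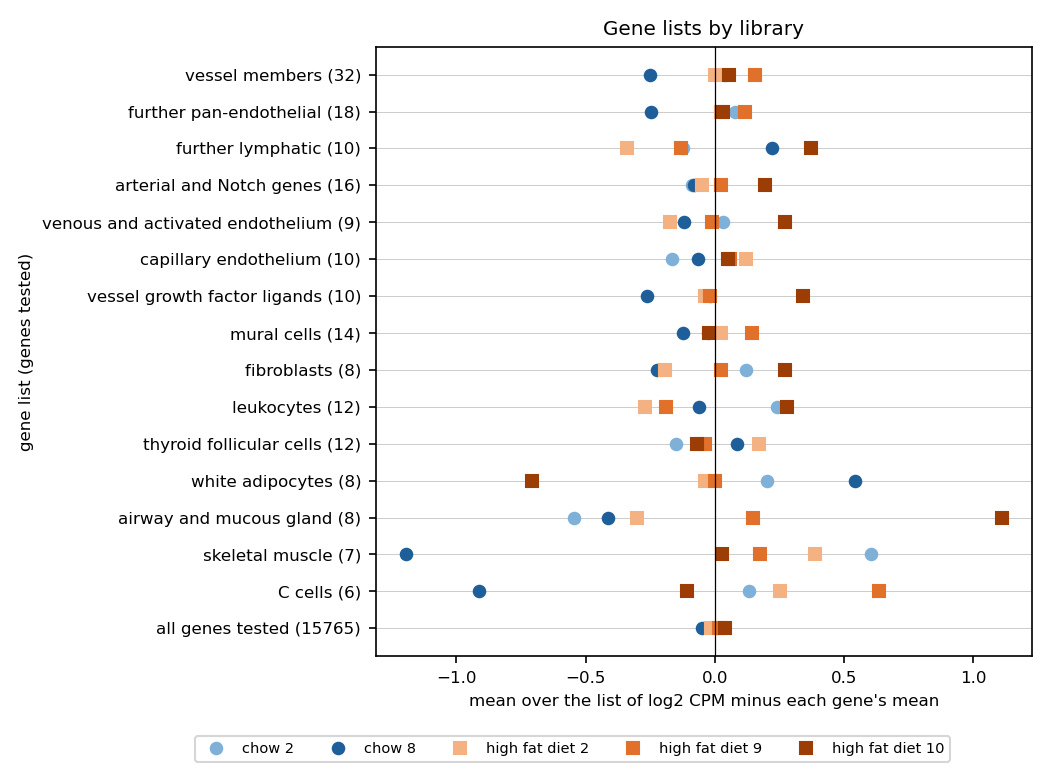
Mean over each gene list of log2 CPM minus the gene means, by library, with the number of genes tested in brackets; circles are chow and squares high fat diet. For the 32 vessel members and the further endothelial genes chow replicate 8 stands lowest at -0.25. It is also lowest for growth factor ligands (-0.26), mural cells (-0.12), fibroblasts (-0.22), skeletal muscle (-1.20), C cells (-0.91) and all genes tested (-0.05). For the other lists shown it is not lowest. For airway and mucous gland genes high fat diet replicate 10 stands highest at 1.11.

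Other cell types that share markers with endothelium were present. Platelet genes summed to 11.6 to 26.0 CPM over 4 measured genes, leukocyte genes to 559 to 730 CPM over 12, and fibroblast genes, some of whose cells carry Cd34, to 2339 to 3884 CPM over 8. Airway and mucous gland genes summed to 6156 CPM in high fat diet replicate 10 and to 615 to 1203 CPM elsewhere. Genes with a log2 fold change above 0 numbered 3 of 4 for platelets (median 0.51), 8 of 12 for leukocytes (0.07), 5 of 8 for fibroblasts (0.15), 7 of 8 for airway and mucous gland (0.72) and 5 of 7 for skeletal muscle (0.31). They numbered 5 of 12 for thyroid follicular cells (median -0.16), 4 of 6 for C cells (0.46), 5 of 5 for cartilage (0.70), 1 of 3 for erythroid cells (-0.06) and 2 of 8 for white adipocytes (-0.77), and the parathyroid gene Casr had 0.20. Several of these medians turned with 1 library left out. Without chow replicate 8 that of skeletal muscle was -0.36 (1 of 7 above 0), of fibroblasts -0.01, of leukocytes -0.10 and of thyroid follicular cells 0.0088. Without high fat diet replicate 10 that of fibroblasts was -0.07 and of leukocytes -0.08. The erythroid median became 0.97 without chow replicate 2, and Casr became -0.41 without chow replicate 8 and -0.54 without high fat diet replicate 9. None of these list genes passed in edgeR, while DESeq2 called the iodide transporter Slc5a5, the adipocyte genes Cfd and Cidec, and Calcb, Tppp3 and Myh3. Cfd, with a log2 fold change of -1.44, had an adjusted p of 0.000914 in DESeq2, and of 0.00141 in edgeR per endothelial RNA. Their part in the vessel values was not tested. Without high fat diet replicate 10 the vessel median was 0.23, with 27 of 32 above 0.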

How the data were processed

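Thyroid total RNA was sequenced from strand-marking libraries, per the labels' protocols. HISAT2, StringTie, DESeq2 and the build mm10 stand in the submitters' processing notes, with no role given. The authors deposited whole-number read counts and FPKM per gene, normalized log2 values that matched quantile-normalized log2(FPKM + 1) to within 0.001, and, per the file headers, a signed fold-change score with p-values and adjusted p-values (chow over high fat diet). In the authors' deposited table, higher values on the high fat diet stood for 25 of the 32 vessel genes, and their lowest adjusted p was 0.971. The smallest deposited count was 1, so a gene unseen in some library is not covered. Another 3 per-sample columns match no sample and were left out.

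The test was run in edgeR 4.0.16 (R 4.3.3): TMM, filterByExpr (648 genes dropped, 15765 kept), a robust quasi-likelihood fit on diet, and Benjamini-Hochberg adjustment over every gene kept. Standard errors are the log2 fold change over the root of F. The common biological coefficient of variation was 18.8%. Other settings were RLE factors, total counts with or without Tg, no filter, a floor of 1 CPM, DESeq2 1.42.0, limma-voom, limma 3.58.1 on the deposited log2 values, and omission of each library; the models were tested on simulated counts. Further settings chosen after seeing the data were the endothelial library size, the count at an unadjusted p under 0.05, and counts of non-overlapping genes with a library omitted. All 32 members are named and, of each other list, up to 4 genes of smallest p. The 19 lists, that of the members among them, were chosen with earlier results of these data known. Gene positions are from GENCODE vM21, and promoters from RefSeq on GRCm38.p6, trimmed to end before the GENCODE start.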

Additional observations from a re-analysis of the deposited data

How the results depend on the processing

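Under every alternative run, 0 of the 32 vessel genes were called higher and 0 lower; over all genes edgeR gave 465 higher and 390 lower at an unadjusted p under 0.05. Over all genes DESeq2 called 49 higher and 47 lower, and fits without 1 library called 0 to 2 higher and 0 to 3 lower. The median log2 fold change of the vessel genes ran from 0.15 to 0.26 under other scalings, filters and tests, was 0.08 per endothelial RNA, and ran from 0.053 to 0.33 with 1 library left out, the lowest without chow replicate 8 and the highest without chow replicate 2. The number above 0 ran from 19 to 31 when 1 library was left out. The number of vessel genes higher at an unadjusted p under 0.05 was 9 with total counts (against 4.89% of all genes) and 2 with total counts without Tg (2.48%). It was 3 in limma-voom (2.59%), 1 per endothelial RNA (1.14%) and 1 to 8 with 1 high fat diet library left out (2.97% to 3.90%). The number with every high fat diet library above every chow library was 8 to 24 with 1 library left out, against 17.7% to 25.7% of all genes. The mean vessel level of high fat diet replicate 2, 0.00 in the main scaling, was -0.023 with total counts and -0.019 with total counts without Tg. Single genes near 0 changed sign: with total counts Robo4 went to 0.074, Aplnr to 0.067 and Icam2 to 0.047, Icam2 went to 0.0031 in limma-voom and Prox1 to -0.013 on the deposited log2 values, and per endothelial RNA S1pr1, Prox1 and Gpihbp1 went to -0.052, -0.047 and -0.043. With 1 library left out, 12 of the 32 genes changed sign at least 1 time and 20 did not. Those ranges were -0.022 to 0.42 for Pecam1, -0.068 to 0.39 for Tie1, -0.27 to 0.12 for Flt4, -0.40 to 0.035 for Cldn5, -0.14 to 0.14 for Robo4, -0.026 to 0.43 for Egfl7, -0.012 to 0.55 for Cd34, -0.33 to 0.38 for Aplnr, -0.35 to 0.37 for Icam2, -0.18 to 0.27 for S1pr1, -0.15 to 0.24 for Prox1 and -0.14 to 0.30 for Gpihbp1. The causes were not tested. Without 1 chow library the other chow library is assumed to vary like the rest. No paired analysis was possible because the diets share a single replicate number.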
